A study of Mus musculus with 6 samples.

Results

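The 30 genes described here encode the soluble machinery that carries proteins and RNA through nuclear pores, the exportins, the importins with their adaptors and transportins, and the genes of the RAN cycle. They were chosen by name from the 54232 genes listed in each library, all 30 were found, and all 30 passed the filter on low counts. Of the 30, 7 are exportins, 17 are import receptors or adaptors and 6 act in the RAN cycle. RNA came from E13.5 fetal liver cells of C57/B6 mice, depleted of cells positive for the late red-cell antigen Ter-119. The 3 day 0 libraries are of these cells with no treatment. The 3 libraries at 30 h are of cells kept in medium with erythropoietin, the hormone of red cell production, with the solvent DMSO added at 24 h for the last 6 h. Libraries with the caspase inhibitor Z-VAD-FMK were not analysed here. Day 0 had neither culture nor solvent, so culture, erythropoietin and DMSO cannot be told apart. The labels do not say whether libraries of a group came from separate animals or cultures, so a p-value here reflects the spread among these samples, which may be technical.

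Transport receptors recognise signals in their cargo and pass through the pore by binding its disordered proteins. The small GTPase RAN gives them direction, because RCC1 loads it with GTP on chromatin and RANGAP1 stimulates GTP hydrolysis in the cytoplasm. Import receptors release cargo on meeting RAN-GTP, whereas exportins bind cargo together with it. During terminal erythropoiesis the nucleus condenses and is expelled, and exportin 7, encoded by Xpo7, is known for its high expression in maturing erythroblasts and for a part in nuclear condensation.

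Library totals ranged from 19241780 to 29949173 counts, and the 30 genes held 0.768% to 0.791% of the counts at day 0 and 0.367% to 0.479% at 30 h. Levels below are CPM, counts relative to the library total after scaling by TMM (a factor per library that centres the bulk of genes), and FPKM, which is CPM per kilobase of exon. A gene was called where the edgeR adjusted p was under 0.05. Markers of other cells moved with the groups. All 10 erythroid markers rose, and their summed level went from 1650 to 1810 CPM in the day 0 libraries to 93200 to 133000 CPM at 30 h. All 10 hepatoblast markers fell, from a sum of 14300 to 16200 CPM down to 815 to 2350 CPM. Of 9 mesenchymal and stellate markers 8 fell (1570 to 1990 CPM, then 35.9 to 93.6 CPM), and of 8 endothelial markers 7 fell and 1 rose (272 to 294 CPM, then 147 to 187 CPM). Most of the endothelial sum at 30 h was Egfl7, the gene that rose (110, 114 and 157 CPM). The median log2 change of the list was -4.79, and Cdh5, Lyve1 and Stab2 were each under 0.5 CPM in every 30 h library. Progenitor markers fell in 8 of 9 cases and rose in 1, with sums of 2540 to 2680 and 706 to 842 CPM. Macrophage markers rose in 3 and fell in 3 of 8 (203 to 227 CPM, then 147 to 222 CPM). Megakaryocyte markers rose in 1 and fell in 2 of 5 (487 to 582 CPM, then 541 to 938 CPM). In each list 0 markers were at 0 in all 30 h libraries. The part of these cells in the changes below was not tested, and in bulk RNA fewer cells of a type cannot be told apart from less RNA per cell.

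Of the 30 genes 19 were called and 11 did not pass, beside 74.5% called of all 16150 genes tested. Of the 30, 14 fell (46.7%) and 5 rose (16.7%), beside 40.1% called lower and 34.4% called higher of all genes tested, and 43.6% and 32.1% of protein-coding genes. The share that fell was near the background in this fit. After correction for GC content 17 of 30 were lower and 4 higher, beside 40.6% and 33.2% of all genes tested. The median log2 change of the 30 was then -0.61, against -0.27. The share that rose was below the background with all libraries, but without 30 h replicate 3, 11 of 30 were higher beside 37.0% of all genes, a share near the background. At 2-fold or more, 7 fell and 1 rose, beside 28.2% and 20.6% of all genes tested. Exportins fell in 4 and rose in 1 of 7, with a median log2 change of -0.76. Import genes fell in 9 and rose in 2 of 17, with a median of -0.47. RAN cycle genes fell in 1 and rose in 2 of 6, with a median of 0.07 whose sign depended on the processing. It was -0.41 with library totals only, -0.07 under upper-quartile scaling and -0.02 when low genes were kept, and it was 0.31 after correction for GC content, 0.20 after correction for length, 0.21 without 30 h replicate 3 and 0.27 with Ranbp6 counted in this class. The exportin median was -1.25 with library totals only and -1.17 after correction for GC content, and the import median was -0.96 and -0.67. The median over all genes tested was -0.09, and over protein-coding genes tested it was -0.2. These class values are a description, and no test compared the classes. The ranges of day 0 and 30 h were apart for 20 of the 30 genes (66.7%, 15 lower and 5 higher), beside 79.7% of all genes tested (43.4% lower and 36.3% higher).

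With library totals only, the median of all genes went from -0.09 to -0.58, 19 members were called lower and 1 higher, and the shares over all genes tested were 54.4% and 22.3%. Taken relative to the median of all genes, Xpo5 stood at -1.99 and Ranbp6 at 1.32 under TMM and totals alike, and Xpo1 at 0.42. The direction of genes near 0 therefore depended on the scaling.

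**Figure D1:**
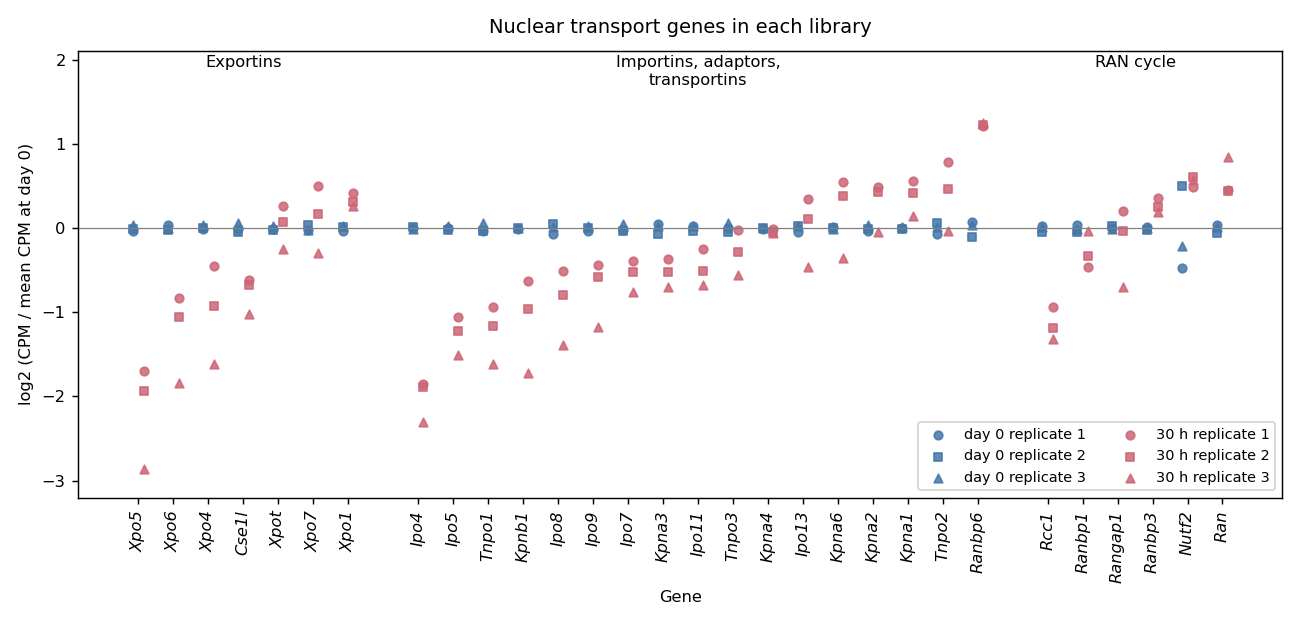
Level of each of the 30 genes in each library, as log2 of its CPM over the mean CPM at day 0 (vertical axis), with genes grouped by class and ordered by change (horizontal axis). Day 0 replicates lie close together for all genes but Nutf2, and 30 h replicate 3 is the lowest 30 h library for 26 of the 30 genes.

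The sequence before the start of 3 genes is shown because of their place in the range: Xpo5, with the lowest log2 change of the 30 from all libraries, Ranbp6, with the largest rise, and Ran, the most abundant of the 30 per length in both groups. Sequences are from RefSeq (GRCm38.p6), 5′ to 3′ on the gene's strand, and stop before the first annotated base of the gene. Capitals mark CACGTG, the E-box bound by MYC and MAX, which reads the same on either strand.
Xpo5 (chr17:46202561-46202781, + strand): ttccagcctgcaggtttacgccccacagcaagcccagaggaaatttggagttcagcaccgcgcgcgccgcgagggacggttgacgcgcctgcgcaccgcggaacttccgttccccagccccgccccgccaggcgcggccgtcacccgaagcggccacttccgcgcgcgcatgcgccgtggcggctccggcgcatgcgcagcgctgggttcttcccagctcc
Ranbp6 (chr19:29812975-29813224, - strand): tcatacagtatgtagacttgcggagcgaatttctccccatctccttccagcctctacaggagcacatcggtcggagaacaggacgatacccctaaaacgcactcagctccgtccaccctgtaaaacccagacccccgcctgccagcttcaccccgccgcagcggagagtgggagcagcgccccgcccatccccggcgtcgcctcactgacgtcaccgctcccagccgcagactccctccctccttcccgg
Ran (chr5:129019906-129020068, + strand): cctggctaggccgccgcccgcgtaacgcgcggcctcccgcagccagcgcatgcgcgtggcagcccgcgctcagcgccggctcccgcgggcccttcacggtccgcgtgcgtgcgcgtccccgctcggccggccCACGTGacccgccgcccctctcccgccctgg

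The RefSeq table held windows for 23 of the 30 genes, 28 windows in all, and the 250 bases before each start were searched on both strands. CACGTG was found in 4 of the 28 windows (14.3%), against 6.02% of 32841 windows of all genes. It lay before Ipo7, Ran, Tnpo2 and Xpot, 1 of which fell and 1 of which rose. CCAAT or its complement was in 10 (35.7%, against 33.9%), a frequency near that of all windows. The erythroid factor motif AGATAA or its complement was in 2 (7.14%, against 9.99%). The members' windows were richer in G and C, with a median of 62.6% against 52.4%, and held a median of 22 CpG against 6. The E-box contains CpG. The motif of the factor NRF1 was searched too and was left out after its result was seen, because its letters came from none of the files used. A match of letters is a description of the window and not a binding site.

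Xpo5 encodes exportin 5, which carries precursor microRNAs to the cytoplasm. It stood at 169, 172 and 178 CPM in the day 0 libraries and at 53.5, 45.1 and 23.8 CPM at 30 h. All 3 values at 30 h lay far below day 0, and the groups did not overlap. The level fell 4.24-fold (log2 change -2.08 ± 0.26 SE, adjusted p = 0.000181), and 15.3% of all genes tested had a change as low or lower. Xpo5 and Ipo4 were not apart in size (-2.08 ± 0.26 and -1.99 ± 0.13 SE), and without 30 h replicate 3 Ipo4 was the lower (-1.86, against -1.81 for Xpo5). The gene lies on chromosome 17, 46202782 to 46243598.

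Xpo6 encodes exportin 6, which keeps actin out of the nucleus. Its values were 168, 161 and 164 CPM at day 0 and 92.4, 78.9 and 45.8 CPM at 30 h, a 2.27-fold fall (log2 change -1.18 ± 0.23 SE, adjusted p = 0.00187). Xpo4, encoding a receptor of translation factor eIF5A and SMAD3, went from 111, 112 and 115 CPM to 81.7, 59.0 and 36.5 CPM, a 1.90-fold fall (adjusted p = 0.0102). In both genes all 30 h values were below all day 0 values, and the 30 h libraries differed from each other by more than the day 0 libraries did. Cse1l encodes CAS, the exportin that returns importin alpha to the cytoplasm after each import round. It went from 337, 329 and 355 CPM to 222, 212 and 168 CPM, a 1.70-fold fall (log2 change -0.76 ± 0.12 SE, adjusted p = 0.000686).

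Xpo1 encodes CRM1, the general exportin for proteins with leucine-rich signals. It was the exportin called higher, from 275, 283 and 286 CPM to 375, 348 and 336 CPM, a 1.26-fold rise (log2 change 0.33 ± 0.09 SE, adjusted p = 0.0106). The groups did not overlap, but the direction rested on the scaling: the log2 change was -0.16 with library totals only (adjusted p = 0.146). A correction for GC content in each library gave -0.37, called lower (adjusted p = 0.0109). Leaving out 1 day 0 library also ended the call, with adjusted p = 0.0707 (replicate 1), 0.055 (replicate 2) and 0.0505 (replicate 3). The log2 changes in these fits were 0.30, 0.31 and 0.32. Of the 30 genes, Xpo1 had the lowest share of G and C in its transcripts, 39.8%, beside a median of 50.3% over all genes tested.

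Xpot, encoding the exportin of transfer RNA, and Xpo7 did not pass. Xpo7 stood at 90.8, 94.5 and 90.9 CPM at day 0 and at 130, 103 and 74.8 CPM at 30 h, so 2 libraries at 30 h were above day 0 and replicate 3 was below it. Without 30 h replicate 3 its log2 change was 0.34 and passed (adjusted p = 0.00496), as against 0.15 ± 0.18 SE with all libraries (adjusted p = 0.467), but it was -0.33 with library totals only. Xpot was at 205, 203 and 210 CPM and then at 248, 216 and 173 CPM, with a log2 change of 0.04 ± 0.14 SE (adjusted p = 0.791). Without 30 h replicate 3 the change of Xpot was 0.17 (adjusted p = 0.0314), and with library totals only it was -0.45 and called lower (adjusted p = 0.0218). Ranbp17, a relative of Xpo7, was much lower per length, at 0.906 ± 0.0453 FPKM at day 0 and 1.05 ± 0.144 FPKM at 30 h (SD, n = 3), and did not pass (adjusted p = 0.182). Xpo7 itself had 4.84 ± 0.111 and 5.39 ± 1.44 FPKM (SD, n = 3), the lowest level per length of the 7 exportins at day 0.

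Among import receptors the central carrier fell. Kpnb1 encodes importin beta, which carries cargo either directly or through importin alpha adaptors. It was the receptor with the highest level per length at day 0, at 151 ± 1.02 FPKM (SD, n = 3). Its values were 988, 999 and 1000 CPM at day 0 and 646, 512 and 303 CPM at 30 h, a 2.04-fold fall (log2 change -1.03 ± 0.24 SE, adjusted p = 0.00507). All 3 values at 30 h were below day 0, and replicate 1 was more than 2 times replicate 3.

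Of the 7 genes named Ipo, 6 fell. Ipo4, whose product carries histones H3 and H4, went from 60.5, 61.1 and 59.8 CPM to 16.8, 16.4 and 12.3 CPM, a 3.98-fold fall (log2 change -1.99 ± 0.13 SE, adjusted p = 7.27e-06). A part of Ipo4 of 2583 exonic bases also belongs to Gm49378, an annotated gene on the same strand that has 0 counts in the 6 libraries, so reads there may not have been assigned and the level of Ipo4 is uncertain. Ipo5, a receptor of ribosomal proteins, went from 731, 722 and 744 CPM to 351, 314 and 258 CPM, a 2.38-fold fall (log2 change -1.25 ± 0.13 SE, adjusted p = 5.34e-05). For both genes every 30 h value lay far below the day 0 range. Ipo7, whose product imports ribosomal proteins and, with importin beta, linker histone H1, fell 1.47-fold (338, 336 and 356 CPM, then 262, 238 and 203 CPM, adjusted p = 0.00268). Ipo9, a carrier of histones H2A and H2B, fell 1.62-fold (adjusted p = 0.00757), Ipo8, whose product binds Argonaute proteins, 1.80-fold (adjusted p = 0.00506) and Ipo11 1.38-fold (adjusted p = 0.00825). Ipo13, a receptor that works in both directions, had a log2 change of 0.04 ± 0.19 SE (adjusted p = 0.867). It passed as higher without 30 h replicate 3 (0.24, adjusted p = 0.0138), and its change was -0.45 with library totals only.

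The transportins, which carry RNA-binding proteins, did not move alike. Tnpo1, the receptor of hnRNP A1 and other proteins with a proline-tyrosine signal, went from 175, 175 and 186 CPM to 93.3, 79.7 and 58.3 CPM, a 2.31-fold fall (log2 change -1.21 ± 0.17 SE, adjusted p = 0.000283). Its close relative Tnpo2 stood at 104, 114 and 110 CPM at day 0 and at 187, 150 and 106 CPM at 30 h, with a log2 change of 0.43 ± 0.19 SE that did not pass (adjusted p = 0.07). Replicates 1 and 2 at 30 h were above the day 0 range, and replicate 3 was inside it. Without 30 h replicate 3 the change of Tnpo2 was 0.63 (adjusted p = 0.000114), and with library totals only it was -0.05. Tnpo3, the carrier of splicing SR proteins, had a log2 change of -0.27 ± 0.14 SE (adjusted p = 0.11), and passed as lower without 30 h replicate 1 (-0.36, adjusted p = 0.0134) and with library totals only (-0.76).

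Ranbp6, a little-studied relative of Ipo5, had the largest rise of the 30 genes. It stood at 21.4, 18.8 and 20.8 CPM at day 0 and at 46.9, 47.6 and 48.1 CPM at 30 h, a 2.34-fold rise (log2 change 1.23 ± 0.10 SE, adjusted p = 1.53e-05). The 30 h libraries agree closely for this gene, replicate 3 included. It lies on chromosome 19, 29808400 to 29812974. It was the 1 member still called higher with library totals only (log2 change 0.74, adjusted p = 0.000283).

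Importin alpha adaptors, which bind the classical nuclear localisation signal and importin beta, gave small differences. Kpna3 fell 1.44-fold, from 186, 171 and 183 CPM to 139, 125 and 111 CPM (adjusted p = 0.00268). Its close relative Kpna4 did not pass, with 184, 185 and 185 CPM and then 183, 179 and 178 CPM (log2 change -0.04 ± 0.08 SE, adjusted p = 0.711). Kpna4 was called lower with library totals only (-0.53, adjusted p = 0.000698) and after the correction for GC content (-0.65, adjusted p = 0.000303). Kpna1 was called higher, from 129, 128 and 130 CPM to 190, 172 and 143 CPM (log2 change 0.39 ± 0.12 SE, adjusted p = 0.0186), but its change was -0.10 with library totals only and 0.01 after correction for GC content (adjusted p = 0.96). Keeping low genes in the fit also ended the call (0.29, adjusted p = 0.0711). Its call ended when any 1 day 0 library was left out (adjusted p = 0.074, 0.0762 and 0.0673 for replicates 1, 2 and 3), and also without the second 30 h library (0.0648). The log2 changes in these fits were 0.37, 0.36, 0.38 and 0.37. Kpna6 did not pass (log2 change 0.24 ± 0.21 SE, adjusted p = 0.314), and passed as higher without 30 h replicate 3 (0.47, adjusted p = 7.05e-05).

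Kpna2 and Nutf2 share most of their sequence with other annotated genes, so their levels are uncertain. Kpna2 encodes the importin alpha linked to dividing cells, and Nutf2 encodes NTF2, which returns RAN-GDP to the nucleus. Processed copies of both genes lie elsewhere in the genome. Coding bases 70 to 129 of the longest reading frame of each annotated transcript (GENCODE M21) are shown beside the same stretch of annotated copies, and capitals mark bases that differ from the member.
Kpna2 (chromosome 11): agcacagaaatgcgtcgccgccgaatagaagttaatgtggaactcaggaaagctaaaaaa
Gm10184 (chromosome 17): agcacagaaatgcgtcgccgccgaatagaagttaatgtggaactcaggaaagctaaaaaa
Gm10259 (chromosome 3): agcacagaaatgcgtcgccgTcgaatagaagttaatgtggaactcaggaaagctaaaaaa
Gm12919 (chromosome 4): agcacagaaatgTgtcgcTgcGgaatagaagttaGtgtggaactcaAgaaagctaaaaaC
Nutf2 (chromosome 8): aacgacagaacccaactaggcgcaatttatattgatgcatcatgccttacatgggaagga
Nutf2-ps1 (chromosome 19): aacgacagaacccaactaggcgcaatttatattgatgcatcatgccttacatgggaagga
Gm9386 (chromosome 17): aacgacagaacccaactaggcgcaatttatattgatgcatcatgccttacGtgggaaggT

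Gm10184 matched the Kpna2 transcript at 99.9% over 1968 of 2054 bases, and Nutf2-ps1 matched the Nutf2 transcript at 100% over 868 of 948 bases. Of all 50-base words of the Kpna2 transcript 92.4% occurred in a transcript of another gene, and of Nutf2 91.1%. Ipo4 followed with 59.5%, shared with Gm49378, and 15 of the 30 genes shared under 1%. Between these stood Ranbp1 with 24.8%, Ran with 15.4%, Xpot with 14.4%, Tnpo1 with 14.1% and other genes with less. The Ran copy Gm13461 had 733 counts in all libraries together, beside 109499 for Ran. In the 6 libraries together 15 counts fell to the 5 near-identical copies of Kpna2 and 2 counts to those of Nutf2, and the treatment of reads that match several places was not stated in the sources. Kpna2 had 16.9, 17.2 and 17.8 CPM at day 0 and 24.2, 23.3 and 16.7 CPM at 30 h (log2 change 0.31 ± 0.15 SE, adjusted p = 0.0984). It passed as higher without 30 h replicate 3 (0.46, adjusted p = 0.000785). Nutf2 had between 24 and 50 counts in each library (0.735, 1.44 and 0.88 CPM, then 1.43, 1.55 and 1.51 CPM) and did not pass (log2 change 0.55 ± 0.30 SE, adjusted p = 0.128). Without day 0 replicate 2, the library with 50 counts, its change was 0.87 (adjusted p = 0.0274). Whether reads of these genes were lost was not tested.

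In the RAN cycle the GTPase gene rose and its exchange factor fell. Ran stood at 618, 576 and 608 CPM at day 0 and at 824, 817 and 1080 CPM at 30 h, a 1.51-fold rise (log2 change 0.60 ± 0.13 SE, adjusted p = 0.00349). All 30 h values were above all day 0 values, and replicate 3 was the highest. With library totals only the change of Ran was 0.10 and did not pass (adjusted p = 0.448). Rcc1, encoding the exchange factor on chromatin, went from 276, 264 and 274 CPM to 142, 119 and 109 CPM, a 2.20-fold fall (log2 change -1.14 ± 0.12 SE, adjusted p = 6.21e-05), and the groups were far apart.

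Rangap1, encoding the GTPase activator, stood at 448, 455 and 444 CPM and then at 517, 440 and 276 CPM, so replicate 1 was above day 0, replicate 2 just below it and replicate 3 far below it. It did not pass (log2 change -0.13 ± 0.21 SE, adjusted p = 0.594), was 0.10 without 30 h replicate 3 and was called lower with library totals only (-0.61, adjusted p = 0.032). Ranbp1, whose product helps RANGAP1 take RAN-GTP off receptors, was at 215, 203 and 208 CPM and then at 152, 166 and 204 CPM (log2 change -0.26 ± 0.12 SE, adjusted p = 0.0857). It passed as lower without 30 h replicate 3 (-0.39, adjusted p = 0.000244) and with library totals only (-0.76, adjusted p = 0.000555). A part of Ranbp1 of 281 exonic bases also belongs to Gm49776, an annotated gene on the same strand with 0 counts. The level of Ranbp1 is thus uncertain, as for Ipo4, and 24.8% of its 50-base words occurred in transcripts of other genes. Xpo4 shares 332 exonic bases on its strand with Gm49361 (0 counts) and Rcc1 shares 135 with Snhg3 (4 counts), so the same limit holds there. Shorter same-strand stretches are those of Tnpo2 with Gm25506 (69 bases, 0 counts) and Xpo7 with Npm2 (39 bases, 14 counts). Ranbp3, a cofactor of CRM1, was called higher, from 135, 132 and 134 CPM to 172, 160 and 153 CPM (log2 change 0.27 ± 0.09 SE, adjusted p = 0.0235), but its change was -0.21 with library totals only. Its call ended likewise when any 1 day 0 library was left out (adjusted p = 0.0978, 0.108 and 0.103 for replicates 1, 2 and 3) and without the second 30 h library (0.0672). The log2 changes in these fits were 0.27, 0.25, 0.26 and 0.28.

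**Figure D2:**
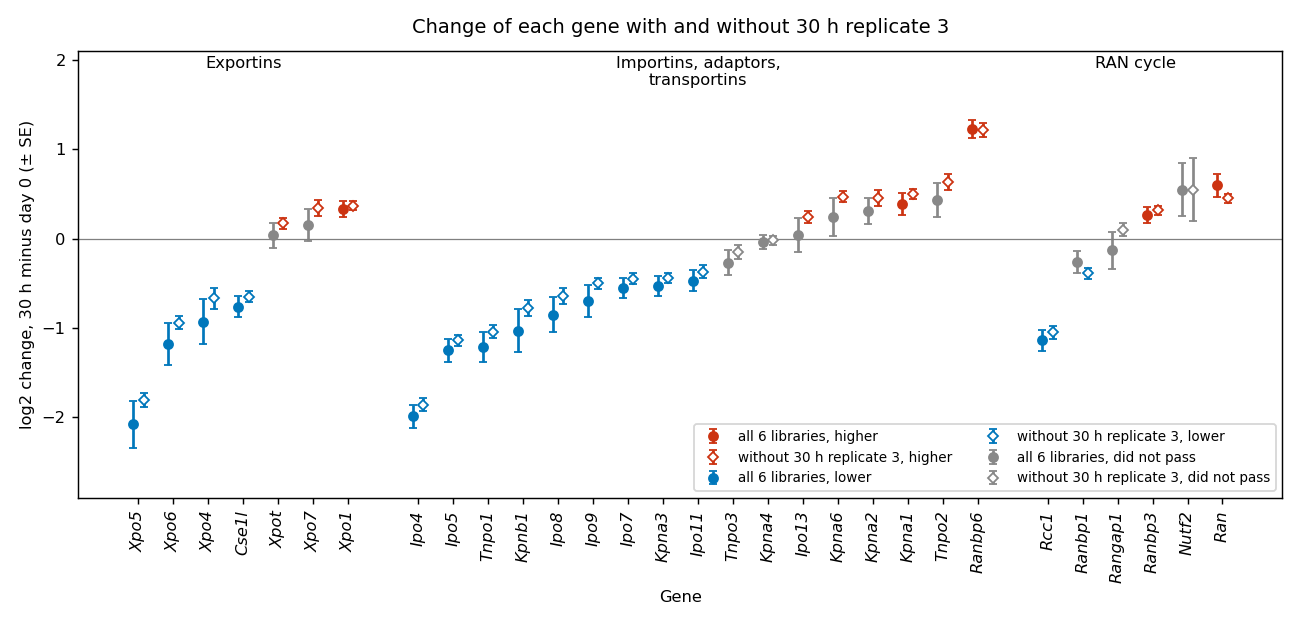
log2 change at 30 h with its standard error (vertical axis) for each gene (horizontal axis, grouped by class), from all 6 libraries (filled circles) and without 30 h replicate 3 (open diamonds), with colour for the call. The genes called lower from all libraries stay lower without that library, and more genes are called higher.

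Within the 30 h group, replicate 3 stood apart. It had the lowest value of the 3 for 26 of the 30 genes, and replicate 1 the highest for 26. Replicate 3 was below the mean of the other 2 by a median of -0.42 on the log2 scale over the 30 genes, beside -0.06 over all genes tested. This difference went with the length of the transcript. Over all genes tested its median was 0.29 for genes with under 2 kb of exon, 0.04 for 2 to 4 kb, -0.18 for 4 to 8 kb and -0.37 for over 8 kb. The members are long, with 15 of 30 at 4 to 8 kb (median -0.42) and 10 over 8 kb (median -0.60). Ran and Ranbp1, with 2646 and 1666 exonic bases, were higher in replicate 3 than in the other 2. The change from day 0 also varied with length over all genes, from a median of 0.50 under 2 kb to -0.31 over 8 kb. The part of length in the results was tested only by an alternative chosen after seeing the data. With each library's trend with exonic length removed, 15 members were lower and 7 higher, beside 40.3% and 35.4% of all genes. Without 30 h replicate 3, 15 members were lower and 11 higher, beside 41.7% and 37.0% of all genes. In that fit Ranbp1 joined the genes called lower, and Xpo7, Xpot, Ipo13, Kpna2, Kpna6 and Tnpo2 joined those called higher.

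**Figure D3:**
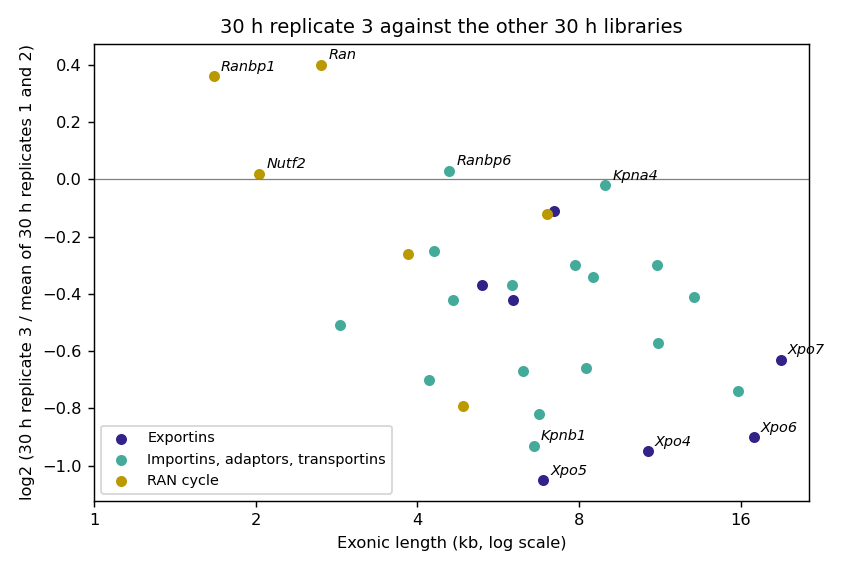
log2 ratio of 30 h replicate 3 over the mean of 30 h replicates 1 and 2 (vertical axis) against exonic length (horizontal axis, log scale) for each of the 30 genes, coloured by class. Ran and Ranbp1 lie above 0 at the short end, and Xpo5, Xpo4, Kpnb1 and Xpo6 are the lowest.

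Levels per length describe the makeup of the machinery. FPKM used all annotated exonic bases of a gene, which can exceed its longest coding transcript. The lengths are 1666 and 1085 bases for Ranbp1, 6590 and 5894 for Kpnb1, and 16920 and 4552 for Xpo6. The order of genes within a group therefore depends on the length used. At day 0 Ran led with 227 ± 8.38 FPKM, then Kpnb1 with 151 ± 1.02, Ranbp1 with 125 ± 3.65 and Ipo5 with 122 ± 1.91 (SD, n = 3 each). The values of Ranbp1 and Ipo5 overlapped, and those of other neighbours in the first 8 places did not. At 30 h Ran had 343 ± 57.7 FPKM, and Ranbp1 (104 ± 16.1), Rangap1 (84.6 ± 25.3), Kpnb1 (73.9 ± 26.3), Ipo5 (51.2 ± 7.85) and Xpo1 (49.2 ± 2.80) followed, each overlapping the one after it in this list. Ran itself did not overlap Ranbp1. Xpo1 went from the ninth place to the sixth, and Xpo5 from 25.2 ± 0.694 to 5.95 ± 2.23 FPKM.

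Shares of the summed FPKM of the 30 genes do not depend on library scaling. They can still carry a library's trend with length or GC content, and they were not computed with those trends removed. Import genes held 40.9%, 41.7% and 41.4% at day 0 and 34.5%, 32.4% and 25.1% at 30 h. RAN cycle genes held 44.1%, 43.0% and 43.1%, and then 51.0%, 53.5% and 63.0%. Exportins held 15%, 15.3% and 15.5%, and then 14.6%, 14.2% and 11.9%. No share of summed FPKM overlapped between the groups, and in each class replicate 3 was farthest from day 0. Of summed counts, with no length scaling, exportins held 20.7%, 20.9% and 21% at day 0 and 21.1%, 20.8% and 19.2% at 30 h, so these overlapped. The exportin difference was -1.74 percentage points by FPKM and -0.50 by counts, while import genes (-10.69 and -9.49) and RAN cycle genes (12.43 and 9.99) kept their direction. Ran alone went from 18.4% ± 0.445 to 32.7% ± 6.76 (SD, n = 3), and this gene held the largest share of the RAN cycle class in every library. Among the other genes of the class the mean share of Rcc1 went from 5.73% to 3.02%. The groups overlapped for Ranbp1 (10.2% and 9.93%) and Rangap1 (7.5% and 7.94%). Ranbp3 went from 1.56% to 2.2% and Nutf2 from 0.0408% to 0.0698%. The rise of the class share by FPKM thus lay in Ran. Kpnb1 and Ipo5 went from 12.3% ± 0.215 and 9.90% ± 0.062 to 6.93% ± 2.17 and 4.83% ± 0.532.

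**Figure D4:**
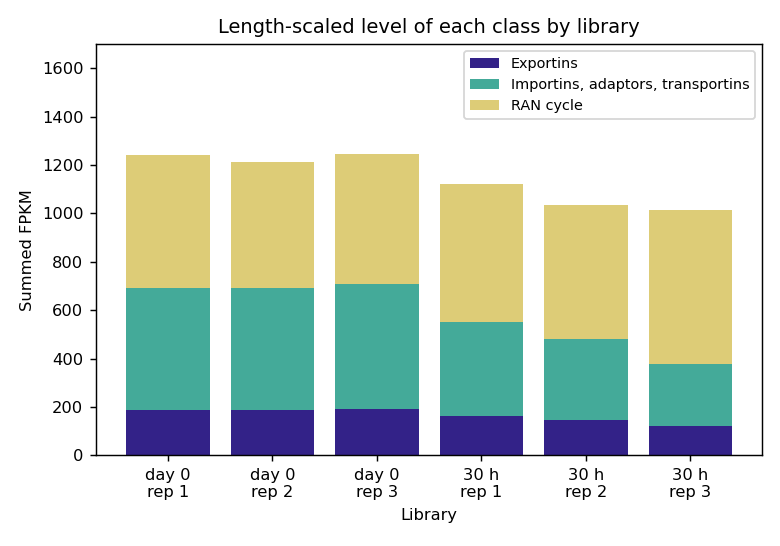
Summed FPKM of exportins, import genes and RAN cycle genes (stacked bars, vertical axis from 0) in each of the 6 libraries (horizontal axis). Import genes sum to 504.8 to 516.3 FPKM at day 0 and 254.7 to 386.6 FPKM at 30 h, while RAN cycle genes sum to 521.3 to 546.4 and 553.2 to 640.2 FPKM. Unlike the shares, these sums depend on the TMM scaling. With library totals only the RAN cycle median log2 change was -0.41, with 0 genes called higher and 3 lower.

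Ratios within a library of 2 related members also do not depend on scaling, and 8 pairs were compared. With 3 libraries against 3 the two-sided exact permutation test cannot give a p under 0.1, so these ratios are given by their values. For 7 of the 8 pairs the groups did not overlap, each with exact p = 0.1 (0.114 adjusted over the 8 pairs). The log2 ratio of Ipo5 to Ranbp6, per kilobase, went from 4.70, 4.87 and 4.77 to 2.51, 2.33 and 2.03, the largest shift of the 8. The ratio of Tnpo1 to Tnpo2 went from -0.08, -0.21 and -0.09 to -1.83, -1.75 and -1.69. Its 3 values at 30 h lay close together although both genes varied between those libraries. At day 0 the transportins were nearly level, and at 30 h Tnpo2 was the more abundant per length in all 3 libraries.

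The log2 ratio of Rcc1 to Rangap1 went from -0.36, -0.45 and -0.36 to -1.53, -1.55 and -1.01, so the exchange factor was lower relative to the activator at 30 h. The ratio of Ran to Ranbp1 went from 0.86, 0.84 and 0.88 to 1.77, 1.63 and 1.75, with the limit on Ranbp1 given above. The ratio of Kpna3 to Kpna4 went from a mean of 1.02 ± 0.06 to 0.53 ± 0.14, and that of Ipo7 to Ipo8 from 3.18 ± 0.07 to 3.52 ± 0.26 (SD, n = 3). Ratios are not free of a library's trend with GC content. After correction for it the log2 changes of Ipo7 and Ipo8 were nearly equal (-1.22 and -1.17). Cse1l relative to its cargo Kpna2 went from 3.42 ± 0.03 to 2.36 ± 0.08, with the limit on Kpna2 given above. For Kpna1 and Kpna6 the groups overlapped (0.75 ± 0.02 and 0.94 ± 0.28, exact permutation p = 0.2).

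**Figure D5:**
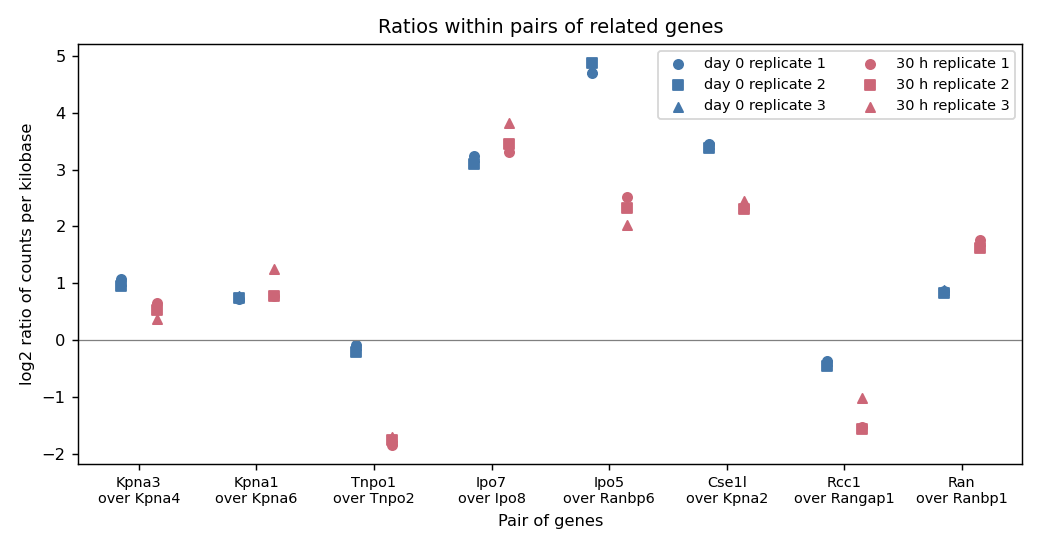
log2 ratio of counts per kilobase (vertical axis) for 8 pairs of genes (horizontal axis) in each library. The groups are apart for 7 pairs, and Ipo5 over Ranbp6 and Tnpo1 over Tnpo2 shift most.

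Other genes of nuclear transport gave a mixed picture. Of 18 further transport factors 15 were tested, and 5 rose and 4 fell. Their median log2 change was 0.22, and it turned to -0.27 with library totals only and to -0.17 after correction for GC content. The largest rise was that of Nxt1, encoding a subunit of the mRNA export receptor, from 62.4, 56.8 and 62.2 CPM to 126, 131 and 196 CPM (2.49-fold, adjusted p = 0.000249). The largest fall was that of Heatr3, whose product helps import ribosomal proteins, from 146, 142 and 151 CPM to 39.1, 40.1 and 32.5 CPM (3.93-fold, adjusted p = 3.3e-06). With library totals only the counts were 3 higher and 7 lower, without 30 h replicate 3 they were 9 and 5, and with the length trend removed 8 and 4. Of 28 nucleoporins, the proteins of the pore itself, 27 were tested, and 16 fell and 6 rose (median -0.50), with 1 higher under library totals and 3 higher when low genes were kept. Nup214, a cytoplasmic-side pore protein and docking site of CRM1, had the largest fall, from 105, 116 and 116 CPM to 57.6, 43.3 and 25.8 CPM (2.65-fold, adjusted p = 0.00126). Tnpo3, Rangap1 and Ranbp1 also share exonic bases on the opposite strand with Irf5, Zc3h7b and Trmt2a (411, 65 and 54 bases). So do Tnpo2 with A230103J11Rik (666 bases), Kpnb1 with Gm11583 (466), Ipo11 with Gm28989 (240) and Ranbp6 with AC120159.1 (173). No source used here states how strand was treated in counting. Both lists are read against the 40.1% lower and 34.4% higher of all genes tested. The share higher was 22.3% with library totals only, 19.9% when low genes were kept and 37.0% without 30 h replicate 3.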

How the data were processed

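RNA of 3 day 0 and 3 30 h libraries was analysed. The deposited values are raw counts per gene, made by the authors with cutadapt 1.13, STAR and HTSeq 0.6.1p1 on mm10, per the submitters' processing notes, which also name DESeq2. The strand setting and annotation are not given in the sources used here. Of 54232 gene IDs 54165 matched GENCODE M21, which gave symbols, exonic lengths and coordinates (mm10). Genes were filtered with filterByExpr, scaled by TMM and tested with edgeR 4.0.16 (robust quasi-likelihood, R 4.3.3), with Benjamini-Hochberg adjustment over the 16150 genes tested and a threshold of 0.05. Alternatives used DESeq2 1.42.0 and limma 3.58.1 (prior count 2), and 18 were run. Errors of log2 changes are standard errors, and pair ratios had two-sided exact permutation tests. The edgeR coefficient of variation between libraries was 5.27% at day 0 and 20.3% at 30 h, and this spread may be technical. On simulated data of 15598 genes with the library sizes of this comparison, 26.2% of 61 genes changed 1.5-fold were called, 67.2% of 67 changed 2-fold and 98.5% of 65 changed 4-fold, with 12 unchanged genes called. Only these few genes were changed there, and both groups shared the same dispersion of each gene. In the real data 74.5% of genes were called and the groups differed in spread. The simulated rates therefore check the code and do not give the power of the calls above. All 30 members are named, with the largest rise and fall of each further list, and Ranbp17. The members and lists were chosen with earlier results of these data known. Annotated copies matched at 95% identity or more over at least 200 bases. Promoter sequences are from RefSeq (GRCm38.p6).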

Additional observations from a re-analysis of the deposited data

How the results depend on the processing

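Xpo5, Xpo6, Ipo4, Ipo5, Ranbp6, Kpnb1, Tnpo1 and Rcc1 kept their call in the 18 alternatives, and Xpo4, Cse1l, Ipo7, Ipo8, Ipo9, Ipo11 and Kpna3 lost theirs only in the test against a 1.5-fold change. With library totals only, 3601 genes were called higher (22.3%), against 5553 (34.4%), and 54.4% of all genes were lower. Higher counts were then 1 member, 0 exportins, 1 import gene, 0 RAN cycle genes (3 lower), 3 other transport factors (7 lower) and 1 nucleoporin, and log2 changes turned for Xpo1 (-0.16), Xpo7 (-0.33), Xpot (-0.45), Ipo13 (-0.45), Kpna1 (-0.10), Kpna2 (-0.18), Kpna6 (-0.24), Tnpo2 (-0.05) and Ranbp3 (-0.21). Upper-quartile scaling gave 3 members higher, 0 exportins and 1 RAN cycle gene, with Xpot at -0.10 and Ipo13 at -0.12. Of all genes tested 30.4% were then higher and 44.4% lower. DESeq2 size factors gave 4 import genes higher, with Kpna4 at 0.02, beside 35.9% of all genes higher. With no filter on low counts 2 members, 0 exportins, 1 import gene, 1 RAN cycle gene (2 lower) and 3 nucleoporins were higher, with Xpot and Ipo13 at -0.06 each. The shares over all genes also fell in that setting, to 19.9% higher and 25.8% lower. Ipo13 was at -0.00 with limma-trend. With the GC trend removed 0 exportins were higher, beside 33.2% of all genes, and Xpo1 (-0.37), Xpo7 (-0.07), Xpot (-0.13) and Rangap1 (0.12) turned. With the length trend removed, an alternative chosen after seeing the data, 2 exportins and 8 other transport factors were higher and 2 RAN cycle genes lower, with Kpna4 at 0.19. Beside these, 35.4% of all genes were higher and 40.3% lower. The test against a 1.5-fold change left 1 member higher and 7 lower, 0 and 2 exportins, 1 and 4 import genes, 0 RAN cycle genes higher, 3 and 1 other transport factors and 1 and 5 nucleoporins. It also lowered the shares over all genes tested, to 23.6% higher and 30.2% lower. With Ranbp6 among the RAN cycle genes, 1 import gene was higher. Same-numbered libraries did not deviate together (correlations -0.224, 0.244 and -0.011), and under the replicate block 1 RAN cycle gene was higher, Ranbp3 losing its call (0.27, edgeR adjusted p = 0.0616). Under that block 32.5% of all genes were higher. Leaving out 1 library gave 5041 to 6233 genes higher and 5976 to 7008 lower, 2 to 11 members higher and 14 to 15 lower, 0 to 3 exportins, 1 to 6 import genes and 1 to 2 RAN cycle genes higher, 1 to 2 RAN cycle genes lower, 5 to 9 other transport factors and 4 to 9 nucleoporins higher. As shares of all genes tested, 30.8% to 37.0% were higher and 36.5% to 41.7% lower. Log2 changes that turned when 1 library was left out ranged from -0.03 to 0.17 for Xpot, -0.09 to 0.24 for Ipo13, -0.05 to 0.01 for Kpna4 and -0.28 to 0.10 for Rangap1. Class shares of the summed FPKM kept their direction when 1 library was left out (-2.24 to -0.92, -12.61 to -7.91 and 8.82 to 14.85 percentage points for exportins, import genes and RAN cycle genes). The cause of these shifts was not tested.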
